A study of Mus musculus with 5 samples.

Results

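The genes described here are 10 immediate early genes, namely Fos, Fosb, Jun, Junb, Egr1, Nr4a1, Arc, Npas4, Atf3 and Ier2. They were chosen by symbol, as rows of the deposited count table whose Ensembl identifier maps to one of these names, and all 10 were found among 53700 gene rows. The RNA was purified by BAC-TRAP (translating ribosome affinity purification), in which an antibody captures ribosomes carrying an EGFP-tagged L10a protein together with the mRNA they hold. All mice were C57BL/6, were 4 months old and carried the L10a transgene, and all received AAV:THCre in the midbrain, a virus whose Cre is driven by a tyrosine hydroxylase promoter, so that the tag was switched on in dopaminergic (DAergic) neurons that the virus reached. The L10a;Esrrg Flox mice have floxed Esrrg alleles, from which Cre removes exon 2 of that gene, which encodes the orphan nuclear receptor ERRγ, while L10a;Esrrg WT mice have none. Tissue was taken 1 month after the deletion, and each library came from the pooled midbrains of several animals. There were 3 WT libraries (replicates 2, 3 and 4) and 2 Flox libraries (replicates 2 and 4), and the comparison asked which ribosome-bound mRNAs differ once Esrrg is lost.

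Immediate early genes are switched on within minutes of a stimulus and need no new protein for it. In neurons, calcium entry and cAMP signal through kinases to CREB, SRF and MEF2, which wait at the promoters of these genes, so that their mRNAs are widely used as a record of recent firing. A subset also answers stress and axon injury, through the JNK kinases and Jun and through Atf3, which is nearly silent in healthy neurons. Microglia, endothelial cells and astrocytes induce many of the same genes, so the mRNAs are not markers of one cell type.

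The libraries held between 20635855 and 23105058 counts assigned to genes, and a gene with no counts could have been present at up to 0.130 to 0.145 CPM (counts scaled to the library's total), the level of 3 counts. That bound reflects counting error alone, as PCR duplicates cannot be told from separate molecules. Esrrg itself had 1763, 1643 and 1726 normalized counts (counts divided by the library's size factor) in WT replicates 2, 3 and 4 and 1504 and 1170.1 in Flox replicates 2 and 4 (log2 fold change -0.35, SE 0.13, DESeq2 adjusted p = 0.0753). Reads of its other exons still count, so these totals do not measure the deletion. Markers of DAergic neurons were abundant in all libraries, with Th between 9849 and 12813 and the dopamine transporter gene Slc6a3 between 9593 and 11300 normalized counts. Markers of other cells were present too, as the summed counts of 8 oligodendrocyte markers (109413 to 161160) were above those of 11 DAergic markers (53196 to 62806), and Cre-negative pulldowns were not analysed here. In such bulk samples, fewer cells of a type and less RNA per cell cannot be told apart.

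All 10 genes had counts in every library, but at levels far below those of the DAergic markers. In CPM per kb of exon, the mean level in WT was 19.3 ± 2.51 for Jun (SD, n = 3), 16.7 ± 4.31 for Junb, 12.9 ± 3.75 for Fos and 9.85 ± 1.88 for Egr1, against 217 ± 25.5 for Th. Arc followed at 8.01 ± 0.495, Ier2 at 7.48 ± 2.78 and Nr4a1 at 3.28 ± 0.882. The injury-responsive Atf3 (1.14 ± 0.342) and Fosb (0.800 ± 0.184) were near the bottom, and Npas4 was last at 0.217 ± 0.120. In this order, neighbours differed beyond their spread at 3 steps, since the WT values did not overlap between Ier2 and Nr4a1, between Nr4a1 and Atf3 and between Fosb and Npas4. The values of every other neighbouring pair overlapped. Lengths are the union of annotated exons (GENCODE release M21), 6243 bases for Fosb and 2352 for Fos, so a gene with long alternative exons has a lower value on this scale.

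**Figure D1:**
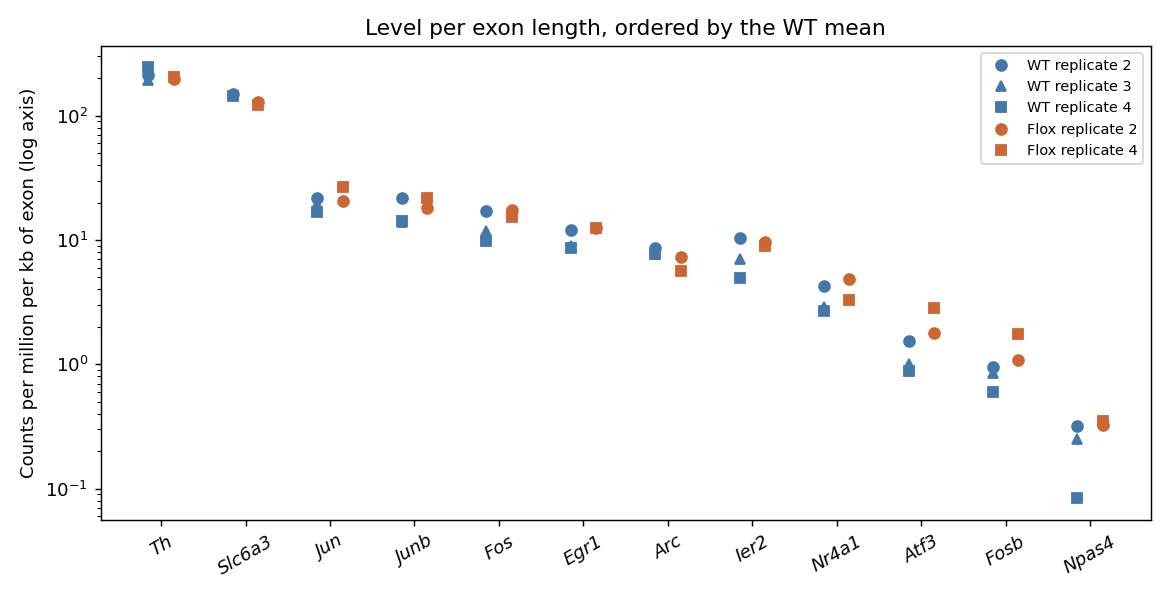
Level of each immediate early gene, with Th and Slc6a3 for reference, in CPM per kb of exon on a log axis, ordered by the WT mean. Blue points are the 3 WT libraries and orange points the 2 Flox libraries, and the immediate early genes run from Jun (WT mean 19.3) down to Npas4 (0.217), all below Slc6a3 (147).

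Most of the members' promoters that could be read hold the core of the element through which CREB and ATF proteins act. Of the 10 genes, 7 had an entry in the RefSeq table of gene starts used here (GRCm38.p6). In the 250 bases before the start, the core of the cAMP response element (CRE), TGACG on either strand, was found in 6 of these 7 (Fos, Fosb, Junb, Atf3, Nr4a1 and Npas4), whereas 17.8% of 32851 promoters in the table hold it. The last 120 bases before the start are shown for the pair of genes that passed the test below (Fosb and Atf3), for their better known relatives Fos and Jun, and for Nr4a1, with each CRE core in capitals, 5′ to 3′.
Fosb, chr7:19310046-19310165, minus strand: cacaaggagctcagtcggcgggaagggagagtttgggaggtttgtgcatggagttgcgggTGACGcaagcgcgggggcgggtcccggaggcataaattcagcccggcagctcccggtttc
Atf3, chr1:191183334-191183453, minus strand: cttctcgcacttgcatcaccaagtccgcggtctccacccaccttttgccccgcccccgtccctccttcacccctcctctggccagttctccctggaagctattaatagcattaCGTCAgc
Fos, chr12:85473770-85473889, plus strand: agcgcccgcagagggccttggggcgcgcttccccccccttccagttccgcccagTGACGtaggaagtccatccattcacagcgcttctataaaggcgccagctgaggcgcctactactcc
Jun, chr4:95052223-95052342, minus strand: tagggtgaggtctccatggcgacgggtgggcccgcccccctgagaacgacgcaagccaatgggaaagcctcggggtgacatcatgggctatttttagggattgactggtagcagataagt
Nr4a1, chr15:101266726-101266845, plus strand: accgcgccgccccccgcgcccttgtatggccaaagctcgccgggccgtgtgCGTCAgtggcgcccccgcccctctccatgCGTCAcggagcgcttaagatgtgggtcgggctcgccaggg
The cores of Fos and Fosb lie at nearly the same distance from the start (bases -66 to -62 and -60 to -56), that of Atf3 lies at bases -7 to -3, and Nr4a1 has 2 cores in this stretch, at -69 to -65 and -40 to -36. The stretch of Jun holds none. The full palindrome TGACGTCA, the AP-1 site TGANTCA and the CArG box bound by SRF were found in 0 of the 7 promoters, as was the ERR site TNAAGGTCA, searched on both strands, and these are held by 1.55%, 6.75%, 1.47% and 1.14% of all promoters. A site outside these windows would not be seen. Nor would a site that departs from the searched letters, such as TGACATCA, which the stretch of Jun holds.

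Fosb and Atf3 rose in Flox, and they were the only members that passed the test. Both encode basic leucine zipper proteins of the AP-1 family: FosB pairs with Jun proteins and its truncated form accumulates in neurons after repeated stimulation, and Atf3 is a classical marker of nerve injury and cell stress. Of the 10 members, 2 were higher and 0 lower at a DESeq2 adjusted p under 0.05, against 4.20% higher and 4.05% lower among the 15724 genes with an adjusted p (8.25% in either direction). The members were chosen with earlier results of these data known, so this count is a description and not a test of the group. Both also had a fold change of at least 1.5, and 1.77% of the 15724 genes were called higher with such a fold. With so few members, 2 of 10 is a small count, and edgeR's quasi-likelihood test gave 0 of 10 (4 at an unadjusted p under 0.05), where 0.884% of genes were called higher and 23.0% had an unadjusted p under 0.05.

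Fosb (ENSMUSG00000003545.4, chromosome 7) had 129.6, 114 and 82.6 normalized counts in WT replicates 2, 3 and 4, and 149 and 249 in Flox replicates 2 and 4. Both Flox libraries were above every WT library, Flox replicate 2 only by a small step and Flox replicate 4 by far. The fold change was 1.83 (log2 0.87, SE 0.29, DESeq2 adjusted p = 0.0389). Atf3 (ENSMUSG00000026628.14, chromosome 1) had 71.6, 46.9 and 42.3 in WT replicates 2, 3 and 4, with 84.5 and 139 in Flox, and its libraries stood in the same order. The fold change was 2.09 (log2 1.06, SE 0.36, DESeq2 adjusted p = 0.0410). These are small counts, between 86 and 250 reads of Fosb and between 44 and 140 reads of Atf3 per library. Neither call held when a WT library was left out. Leaving out a Flox library leaves only 1, with no spread within Flox, so those runs give a fold change alone. Without Flox replicate 2 the log2 fold changes were 1.19 for Fosb and 1.38 for Atf3. Without Flox replicate 4 the log2 fold changes were 0.45 and 0.66. Without WT replicate 3 the DESeq2 adjusted p was 0.130 for Fosb (log2 0.91) and 0.218 for Atf3 (0.975). Without WT replicate 2 the adjusted p values were 0.0869 and 0.0617, although the fold changes grew to 1.01 and 1.33 on the log2 scale, and without WT replicate 4 neither gene had an adjusted p (unadjusted p = 0.0232 and 0.0234).

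**Figure D2:**
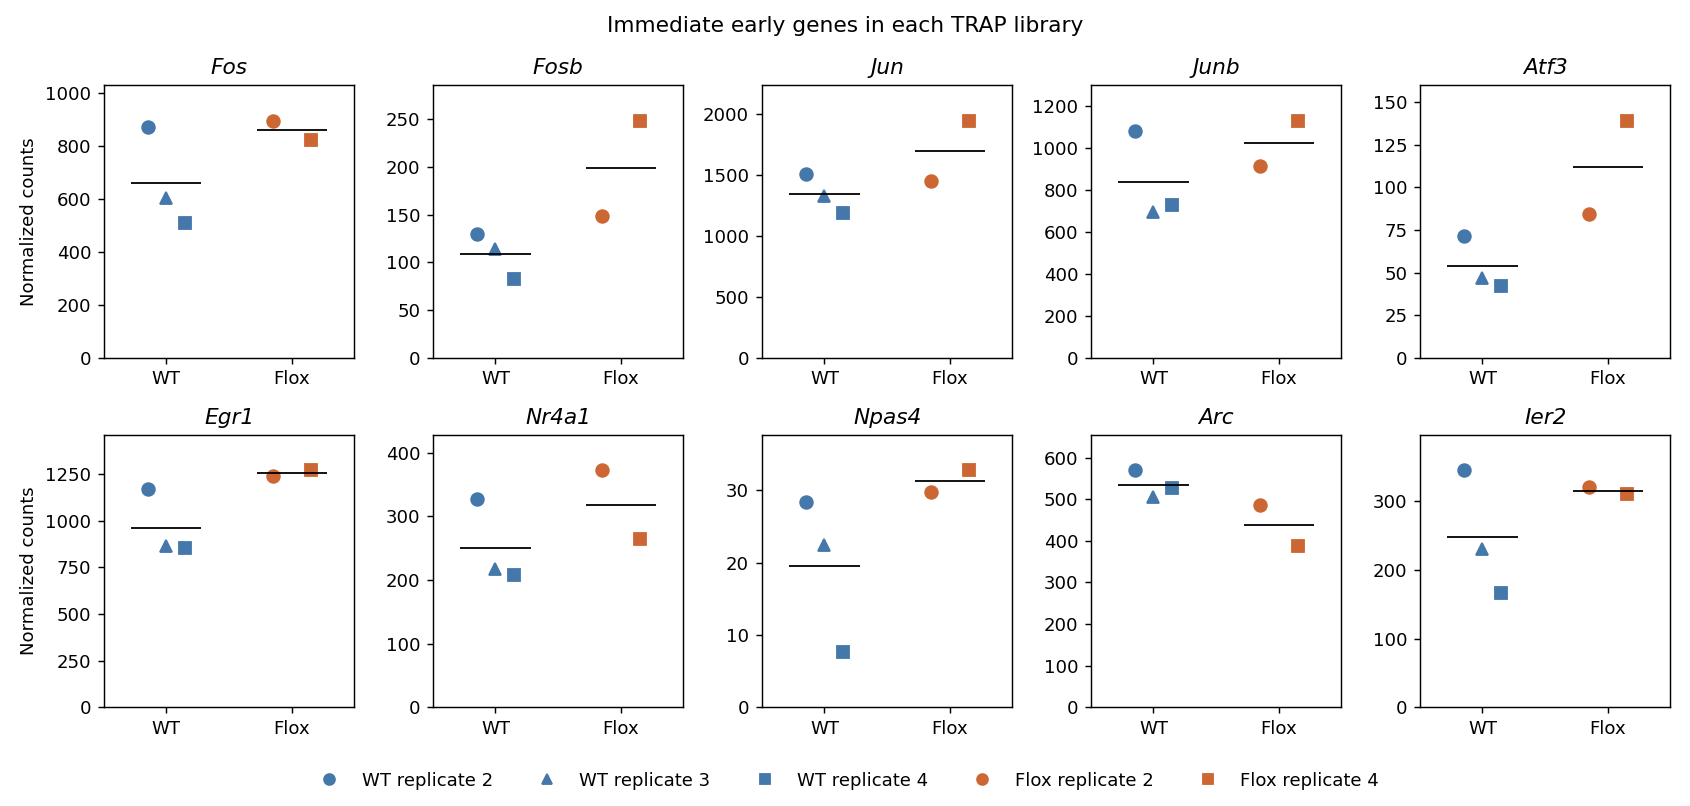
Normalized counts (y axis, from 0) of each immediate early gene in the 3 WT and 2 Flox libraries (x axis), with symbols for replicate numbers and a black line at the group mean. Fosb and Atf3 are highest in Flox replicate 4 (249 and 139), WT replicate 2 is the highest WT library in all 10 panels, and Arc is the only gene with both Flox libraries at the bottom.

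The other AP-1 subunits were higher on average in Flox but overlapped with WT. Jun (ENSMUSG00000052684.5, chromosome 4), the partner through which Fos proteins bind DNA, had 1513, 1326 and 1189 normalized counts in WT replicates 2, 3 and 4, and 1452 and 1948 in Flox replicates 2 and 4. Flox replicate 2 lay within the WT range and Flox replicate 4 above it (log2 fold change 0.34, SE 0.16, DESeq2 adjusted p = 0.174). Without Flox replicate 2 Jun passed (log2 0.54, DESeq2 adjusted p = 0.0221), and without Flox replicate 4 it was at 0.11. Fos (ENSMUSG00000021250.14, chromosome 12) had 871, 602 and 508 in WT and 896 and 823 in Flox, so that WT replicate 2 stood beside the Flox libraries and the other WT libraries stood apart below them (0.38, SE 0.20, DESeq2 adjusted p = 0.267). Junb (ENSMUSG00000052837.8, chromosome 8), a Jun protein with weaker activating power, had 1082, 696 and 729 in WT and 915 and 1131 in Flox (0.29, SE 0.19, DESeq2 adjusted p = 0.421). Here again WT replicate 2 reached the Flox level. For Junb and Jun, 7.52% and 7.28% of the exon bases are shared with Prdx2 and with the antisense gene Junos on the other strand. Strand was not recorded, so reads falling on both genes cannot be assigned to either.

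Fosb rose relative to Fos in Flox replicate 4 alone. Fosb counts were 14.9%, 19.0% and 16.3% of Fos counts in WT replicates 2, 3 and 4, 16.6% in Flox replicate 2 and 30.2% in Flox replicate 4. The ratio in Flox replicate 2 was thus inside the WT range, and Flox replicate 4 alone was above it. Atf3 counts were 4.74%, 3.54% and 3.55% of Jun counts in WT, and 5.82% and 7.14% in Flox, where both libraries were above WT.

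None of the remaining transcription factors, Egr1, Nr4a1 and Npas4, passed. Egr1 (ENSMUSG00000038418.8), a zinc finger protein that binds GC-rich promoters, had 1170.5, 866 and 853 normalized counts in WT replicates 2, 3 and 4, and 1241 and 1272 in Flox replicates 2 and 4. Egr1 in Flox thus exceeded the whole WT range, by a small step over WT replicate 2 (log2 fold change 0.38, SE 0.16, DESeq2 adjusted p = 0.112). Nr4a1 (Nur77, ENSMUSG00000023034.8, chromosome 15), an orphan nuclear receptor induced by calcium and cAMP, had 328, 217 and 208 in WT and 373 and 264 in Flox (0.35, SE 0.24, DESeq2 adjusted p = 0.463). Here the order of the Flox libraries was turned round, with Flox replicate 2 the highest of all and Flox replicate 4 below WT replicate 2. Npas4 (ENSMUSG00000045903.10, chromosome 19), a neuron-specific factor that depends on calcium entry, had 27, 22 and 8 reads in WT and 31 and 33 in Flox (0.69, SE 0.60, DESeq2 adjusted p = 0.593), which leaves a 95% interval from -0.48 to 1.86. At this depth neither a fall nor a large rise of Npas4 could be told from no change.

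Arc (ENSMUSG00000022602.15, chromosome 15) was the only member that was lower on average in Flox. Its protein is an effector and not a transcription factor, and controls the removal of AMPA receptors at synapses. It had 570.0, 504 and 527 normalized counts in WT replicates 2, 3 and 4, and 486 and 388 in Flox replicates 2 and 4. The WT libraries lay close together and both Flox libraries lay below them, but the difference did not pass (log2 fold change -0.29, SE 0.16, DESeq2 adjusted p = 0.301). Arc counts were between 48.7% and 61.8% of Egr1 counts in WT and 39.2% and 30.5% in Flox, for genes that are known to be induced by the same stimuli. Ier2 (ENSMUSG00000053560.6, chromosome 8), a small nuclear regulator of the serum response, had 346, 231 and 166 in WT and 321 and 310.2 in Flox (0.35, SE 0.26, DESeq2 adjusted p = 0.505), so that its WT range spanned 2.08-fold and enclosed both Flox libraries.

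**Figure D3:**
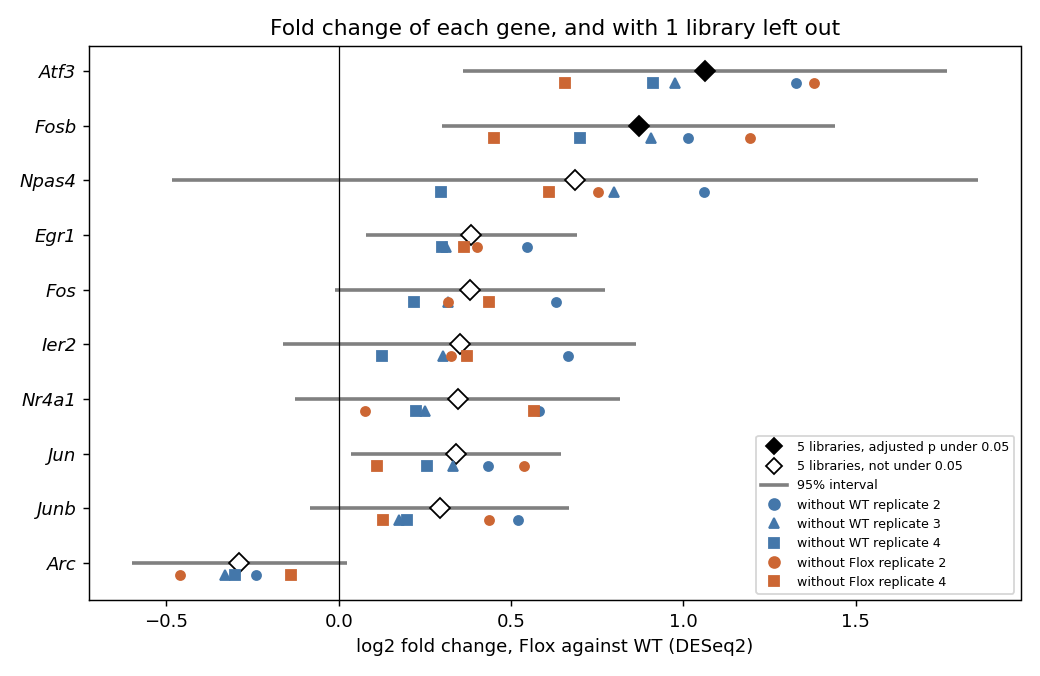
DESeq2 log2 fold change, Flox against WT, of each immediate early gene (diamond, filled where the adjusted p was under 0.05) with its 95% interval (grey line), and the same value with 1 library left out (coloured symbols). Fosb and Atf3 lie highest with Npas4, Arc is below 0, and leaving out Flox replicate 4 moves Fosb from 0.87 to 0.45.

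Across the members, WT replicate 2 stood above the other WT libraries. It was the highest WT library for 10 of 10 members, with a median of 0.38 on the log2 scale above the WT mean, whereas the median was -0.12 in WT replicate 3 and -0.31 in WT replicate 4. In Flox the medians were 0.41 (replicate 2) and 0.42 (replicate 4), close to that of WT replicate 2. For 9 of 10 members, all but Arc, both Flox libraries were above WT replicates 3 and 4. That count leaves aside the WT library that was highest for all 10. The share of all genes arranged in this way was not computed. With WT replicate 2 included, 4 were above all WT libraries (Fosb, Atf3, Egr1 and Npas4), 5 overlapped and Arc was below, against 19.9% of genes above and 22.5% below. The median log2 fold change of the members was 0.37, against -0.0063 over all genes with an adjusted p, and 4 members had an unadjusted p under 0.05, where 20.3% of all genes had one. Without WT replicate 2 the median was 0.61, and 8 of 10 had an unadjusted p under 0.05 (12.7% of all genes did). Dropping the library that was highest in WT lowers the WT mean, so larger fold changes in that run are built in. There Fos (0.63, DESeq2 adjusted p = 0.0308) and Egr1 (0.55, DESeq2 adjusted p = 0.0308) passed in place of Fosb and Atf3, where 1.26% of genes were called higher. Dropping WT replicate 3 or WT replicate 4 instead weakened the pattern, with medians of 0.32 and 0.24. In each case only 2 of 10 members, Fosb and Atf3, had a DESeq2 unadjusted p under 0.05, against 14.9% and 23% of all genes.

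The pair of Flox libraries did not carry the same pattern. Fos, Nr4a1, Arc and Ier2 were higher in Flox replicate 2, and Fosb, Jun, Junb, Atf3, Egr1 and Npas4 in Flox replicate 4. The ratio of Flox replicate 4 to Flox replicate 2 was 1.67 for Fosb, 1.65 for Atf3 and 1.34 for Jun, close to 1 for Egr1 (1.03), Ier2 (0.967) and Fos (0.918), and lowest for Nr4a1 (0.709) and Arc (0.798). The genes that most resembled Fosb over the 5 libraries, by the distance between profiles of log2 normalized counts among 12846 genes, were F11r, Lck and Flnc (distances of 0.164, 0.181 and 0.189). Their log2 fold changes were 0.92, 0.73 and 0.91. Those nearest to Atf3 were Nfkbia, which encodes the inhibitor of NF-κB, Klk6 and the lysosomal protease gene Ctsz (0.222, 0.241 and 0.274). Their log2 fold changes were 0.96, 1.25 and 1.14. Being chosen for this profile fixes the direction of all 6 genes, so these values are a description over 5 libraries, with no test.

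Summed markers of microglia, endothelium and T lymphocytes were higher in both Flox libraries than in WT, most in Flox replicate 4. The summed normalized counts of 12 microglial markers were between 1545 and 2931 in WT, and were 5211 in Flox replicate 2 and 11162 in Flox replicate 4. Of these 12, 10 passed, all higher (6 in edgeR), where 4.20% of all genes were called higher (0.884% in edgeR), and none was at 0 in any library (C1qa had 377 to 743 in WT and 1598 and 4044 in Flox, and Trem2 62.5 to 100.1 in WT and 203 and 486 in Flox). Endothelial markers (8 genes) summed to between 128 and 288 in WT, and to 299.7 and 770.4 in Flox, with 3 of 8 past the test (0 in edgeR, with 6 at an unadjusted p under 0.05). The 6 T lymphocyte markers summed to between 25.9 and 61.1 in WT and to 145 and 322 in Flox, with 2 of 6 past the test (1 in edgeR). In Flox these sums were higher in replicate 4 than in replicate 2, as were 6 of the 10 members (Fosb, Atf3, Jun, Junb, Egr1 and Npas4), whereas Fos, Nr4a1, Ier2 and Arc were higher in replicate 2. In WT the order differed, since the microglial and endothelial sums were highest in WT replicate 3 and the immediate early genes in WT replicate 2, as was the T lymphocyte sum (61.1, against 57.1 in WT replicate 3). The part of these cells in the rise of Fosb and Atf3 was not tested. Astrocyte markers summed to between 74828 and 109197 in WT and to 78873 and 102553 in Flox, and 0 of 9 were called by DESeq2 or edgeR, each with 1 gene at an unadjusted p under 0.05. DAergic markers summed to 53893 and 56659 in Flox, within the WT range. Of these 11, 1 (Ret) was lower in DESeq2, near the 8.25% of all genes called in either direction. Of 6 GABAergic markers, Sst was higher and Gad2 lower in DESeq2, where 4.20% of all genes were higher and 4.05% lower. In edgeR both lists had 0 calls, each with 3 genes at an unadjusted p under 0.05, where 23.0% of all genes had one. The lists for oligodendrocytes, mural cells, blood, border macrophages and glutamatergic neurons had 0 calls in DESeq2, with 0 genes at an unadjusted p under 0.05, and 0 in edgeR, with 1 mural and 2 blood genes at an unadjusted p under 0.05.

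**Figure D4:**
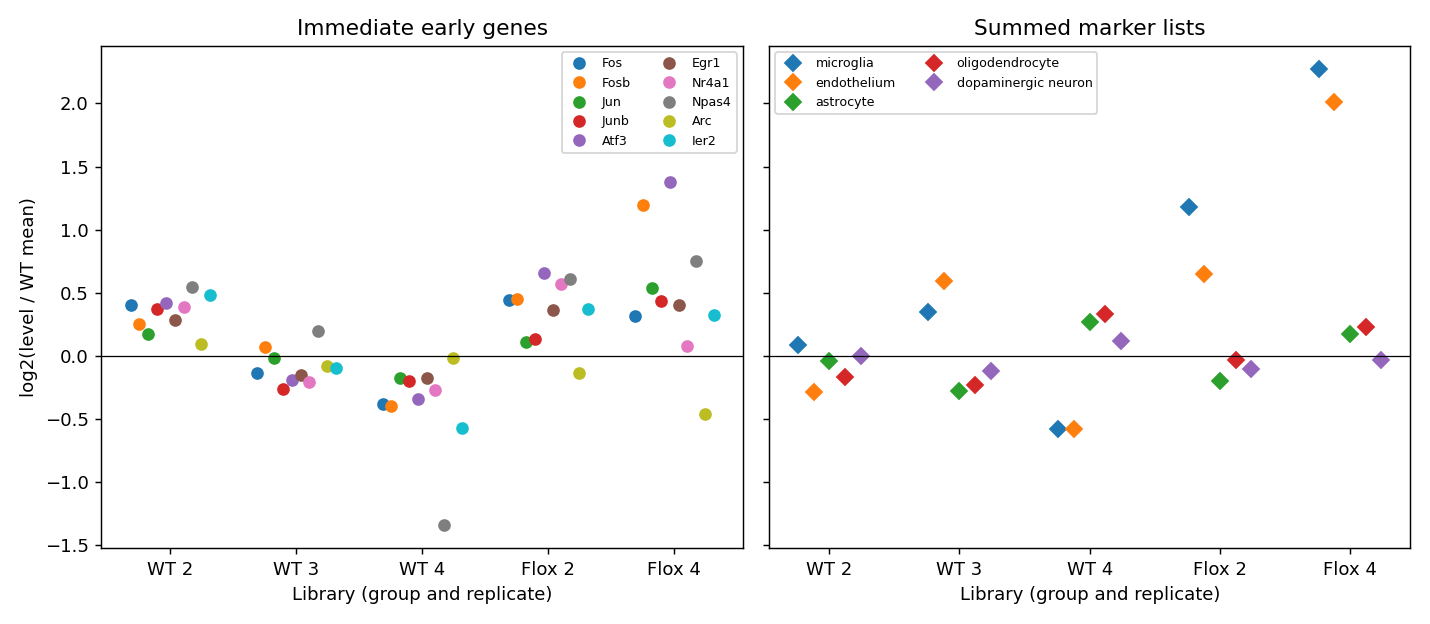
Each library's level relative to the WT mean on the log2 scale, for the 10 immediate early genes (left) and for the summed counts of 5 marker lists (right). WT replicate 2 lies above 0 for all 10 genes, and Fosb and Atf3 stand highest in Flox replicate 4 (1.19 and 1.38). The microglial sum rises in both Flox libraries, most in replicate 4. The endothelial sum is 0.65 in Flox replicate 2, close to the 0.59 of WT replicate 3, and highest in Flox replicate 4 (2.01).

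Further immediate early genes were examined as a wider list of 46, of which 45 had an adjusted p. Of the 46, 4 were higher and 0 lower in DESeq2, against 4.20% higher and 4.05% lower over all genes, and the median log2 fold change of the 45 was 0.19, with 34 above 0. Arl4d, a small GTPase, had the smallest adjusted p, with 381, 301 and 275 normalized counts in WT replicates 2, 3 and 4 and 458 and 597 in Flox (log2 0.73, SE 0.19, DESeq2 adjusted p = 0.00584). Sgk1, a kinase induced by glucocorticoids (0.59, DESeq2 adjusted p = 0.0403), the zinc finger factor Klf6 (0.49, DESeq2 adjusted p = 0.0421) and Rrad, a GTPase that restrains calcium channels (0.70, DESeq2 adjusted p = 0.0435), were the others. The closest relatives of the members were not among them. Egr3 (-0.05), Egr4 (0.55) and Nr4a3 (-0.21) had a DESeq2 adjusted p of 0.436 or more. Egr2 (1.61) had no adjusted p, with 11, 2 and 0 reads in WT replicates 2, 3 and 4 and 10 and 18 in Flox. Ier3 was at 0.44 (DESeq2 adjusted p = 0.0651), with both Flox libraries above every WT library. The phosphatase gene Dusp1, which shuts off MAP kinases after a stimulus, was at 0.10 (DESeq2 adjusted p = 0.863). Nr4a2, which DAergic neurons express permanently, was at -0.08 (DESeq2 adjusted p = 0.820). The count of 4 was 0 in edgeR (12 of 46 at an unadjusted p under 0.05, against 23.0% of all genes). Without WT replicate 3 the count was 0, with 8 of 46 at a DESeq2 unadjusted p under 0.05, against 14.9% of all genes. Without WT replicate 4 it was 2, with 7 of 46 at such a p, against 23% of all genes. The share of all genes called in these runs is not given.

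Of 12 further AP-1 and related leucine zipper genes, Jund alone passed, the Jun protein that is made constitutively. A count of 1 among the 10 with an adjusted p is near the 8.25% of all genes called. Jund had 2698, 2504 and 2406 normalized counts in WT replicates 2, 3 and 4 and 3291 and 3618 in Flox (log2 0.45, SE 0.11, DESeq2 adjusted p = 0.00206). Both Flox libraries lay well above WT, and Jund kept its call when any 1 WT library was left out. In edgeR the list had 0 calls and 1 gene at an unadjusted p under 0.05. Fosl2 (0.21), Mafk (0.13) and Atf2 (-0.15) did not pass.

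Some of the genes that nerve injury induces together with Atf3 and Jun rose. Of 24 such genes, 5 rose and 0 fell in DESeq2 (4.20% and 4.05% of all genes did), and the median of the 22 with an adjusted p was 0.25. Of these 5, 4 encode neuropeptides that uninjured midbrain neurons also make, namely Gal (log2 fold change 1.27), Npy (0.88), Nts (0.76) and Adcyap1 (0.43). Gal, the precursor of galanin, had 158, 255 and 114 normalized counts in WT replicates 2, 3 and 4 and 407 and 438 in Flox (SE 0.27, DESeq2 adjusted p = 3.2e-04). The last, the small heat shock protein gene Hspb1, had 113, 127 and 126 in WT and 157 and 304 in Flox (0.92, SE 0.28, DESeq2 adjusted p = 0.0230), with most of the rise in Flox replicate 4. The growth cone gene Gap43 was at 0.20 (DESeq2 adjusted p = 0.187) and Sox11 at 0.40 (0.174), and the integrated stress response factor Ddit3 at 0.15 (0.649). Sprr1a, one of the most injury-specific genes, had between 0 and 20 reads per library. The count of 5 was 2 without WT replicate 2, where 1.26% of all genes were called higher. In edgeR it was 0 (10 of 24 at an unadjusted p under 0.05, against 23.0% of all genes).

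Several genes of stress kinase signalling fell, among them genes on the way from stress to Jun. Of 18 genes on this list, which also holds scaffolds and p38 genes, 0 rose and 5 fell in DESeq2. Over all genes 4.20% rose and 4.05% fell, and the median of the list was -0.19. Map3k12 encodes the dual leucine zipper kinase DLK, the sensor of axon damage that drives Jun and Atf3, and had 1233, 1153 and 1225 normalized counts in WT replicates 2, 3 and 4 and 853 and 589 in Flox. Both Flox libraries were far below WT (log2 -0.74, SE 0.16, DESeq2 adjusted p = 3.8e-04). The JNK genes Mapk9 (-0.36) and Mapk10 (-0.31) fell, as did Mapk8ip1, a scaffold that holds JNK near its activators (-0.44), and Mapk14, which encodes p38α (-0.41), with DESeq2 adjusted p between 0.0112 and 0.0441. Map3k13, the close relative of DLK, was at -0.45 and Mapk8 at -0.11 (DESeq2 adjusted p of 0.0848 and 0.668). Map3k12 alone had a fold change of at least 1.5. It passed without WT replicate 2 (1 of 18), WT replicate 3 (2) or WT replicate 4 (3). In these runs 7, 5 and 7 of 18 had a DESeq2 unadjusted p under 0.05, against 12.7%, 14.9% and 23% of all genes. In edgeR the count was 0 (8 of 18 genes at an unadjusted p under 0.05, against 23.0% of all genes).

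Of 35 genes of upstream signalling through calcium, cAMP and ERK, 1 rose and 1 fell in DESeq2, a share near the 8.25% of all genes called, and the median was -0.08. The gene that rose was Crebbp, the coactivator that CREB recruits, with 744, 849 and 621 normalized counts in WT replicates 2, 3 and 4 and 1049 and 1254 in Flox (log2 0.64, SE 0.16, DESeq2 adjusted p = 0.00262). Rps6ka2, an ERK-activated kinase, fell (-0.49, SE 0.17, DESeq2 adjusted p = 0.0484). Rps6ka2 did not pass without WT replicate 2 or without WT replicate 3. In these runs 2 and 6 of 35 had a DESeq2 unadjusted p under 0.05, against 12.7% and 14.9% of all genes. In edgeR 0 of 35 passed (10 at an unadjusted p under 0.05, against 23.0% of all genes).

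**Figure D5:**
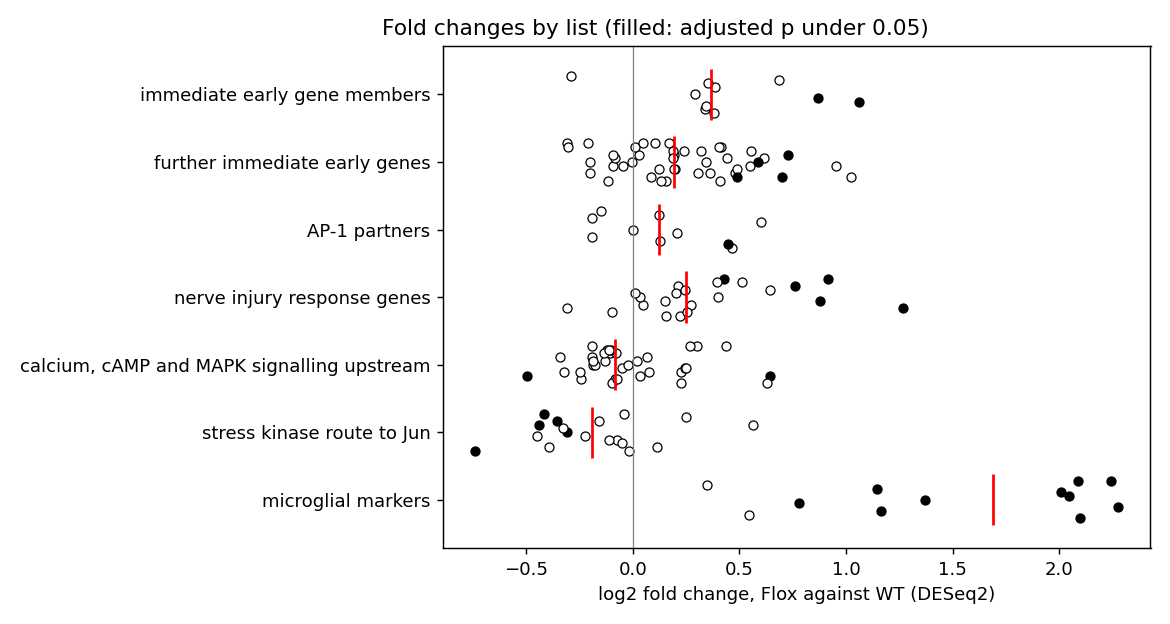
DESeq2 log2 fold change (x axis), Flox against WT, of the genes with an adjusted p in 7 lists (rows), filled where that p was under 0.05, with a red line at the list's median. The immediate early gene members lie mostly to the right (median 0.37), the stress kinase genes mostly to the left (-0.19), and the microglial markers farthest to the right of the lists plotted (1.69).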

How the data were processed

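Ribosome-bound mRNA was sequenced from 3 Esrrg WT and 2 Esrrg Flox pools. The authors trimmed reads of poly(A)-selected, unstranded libraries with Trim Galore, aligned them with STAR and assigned them to genes with HTSeq. Raw, whole-number counts were deposited without normalization. The study's methods name genome GRCm38, the submitters' processing notes name GRCm39, and the RefSeq coordinates printed for promoters are on GRCm38.p6. Of 53700 identifiers, 97.0% were named through GENCODE M21, without version numbers. Summary lines for unassigned reads stayed out of library sizes and tests (ambiguous reads were 5.62% to 5.78% of all reads).

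Genes with at least 1 count (29407) were fitted with DESeq2 (version 1.42.0, run under R 4.3.3; Wald test, two-sided, default size factors, independent filtering at 0.05, Benjamini-Hochberg adjustment over all genes). The study's methods name DESeq2 on the same libraries, with a fold change cutoff beside the adjusted p. Here a gene passed at an adjusted p under 0.05 whatever its fold, and the fold cutoff was an alternative. Alternatives were edgeR version 4.0.16, TMM library sizes, at least 10 counts in at least 2 libraries, no independent filtering, an added fold change of 1.5, the replicate number as a block, and leaving out each library. Leaving out a Flox library leaves 1 in that group, so only fold changes are given for those runs. The fits were run on simulated counts with 200 changed genes and the same spread setting for every gene. The real libraries need not vary in that way, so the simulation tests the code and not the calls reported here. All 10 pairs of libraries differed by more than counting noise (chi-square per degree of freedom from 4.25 to 45.8), and p-values measure the spread between these pools. The members and gene lists were chosen with earlier results of these data known. Named genes were the members, genes of each list that passed (up to 8), the 3 genes nearest to Fosb and to Atf3 (Euclidean distance of centred log2 of the normalized count + 1, mean of at least 50), and Esrrg, Th and Slc6a3. Relatives that did not pass, and individual marker genes, were named after their values were seen.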

Additional observations from a re-analysis of the deposited data

How the results depend on the processing

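The direction of all 10 members was the same in every alternative run (TMM library sizes, edgeR, the filter on low counts, no independent filtering, the replicate block, and each library left out), and their median ran from 0.24 without WT replicate 4 to 0.61 without WT replicate 2. The calls were less stable. The 2 members called higher became 0 in edgeR (4 at an unadjusted p under 0.05), 0 with independent filtering off (adjusted p of 0.0725 for Fosb and 0.0763 for Atf3) and 0 with the replicate block. With 1 WT library left out the count ran from 0 to 2. The number called lower was 0 in all of these runs. Without WT replicate 4, independent filtering left 9796 genes with an adjusted p, and Fosb, Atf3 and Npas4 had none.

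The replicate numbers are shared by WT and Flox libraries 2 and 4, but nothing in the labels ties them to a common day or litter. The deviations from the group means correlated at 0.0932 for libraries 2 and 0.0874 for libraries 4 over 16711 genes. With only 2 Flox libraries their deviations mirror each other. The mismatched pairs therefore had the same values with the opposite sign (-0.0932 for WT replicate 2 with Flox replicate 4, -0.0874 for WT replicate 4 with Flox replicate 2), and these correlations cannot decide on a pairing. Replicate number 3 exists only in WT, so with the replicate block WT replicate 3 does not inform the group difference, which rests on libraries 2 and 4. With this block, Fosb was at 0.89 (DESeq2 adjusted p = 0.322) and Atf3 at 0.975 with no adjusted p (unadjusted p = 0.0856). Under that block the AP-1 partners went from 1 call to 0, the further immediate early genes from 4 to 0, the upstream signalling genes from 2 to 1 and the stress kinase genes from 5 to 3.

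In edgeR all 5 lists (AP-1 partners, further immediate early genes, upstream signalling, stress kinases and nerve injury genes) had 0 calls, with 1, 12, 10, 8 and 10 genes at an unadjusted p under 0.05. With independent filtering off, the further immediate early genes had 1 call and upstream signalling 1, and with the filter on low counts upstream signalling had 1. With the fold change of 1.5 added there were 0 calls among AP-1 partners, 1 in upstream signalling and 1 among stress kinases. With 1 library left out, the counts ran from 0 to 1 for AP-1 partners, 0 to 6 for further immediate early genes, 0 to 2 for upstream signalling, 0 to 4 for stress kinases and 1 to 7 for nerve injury genes. Among the 10 members Npas4 had the fewest reads, 8 to 33 per library. The cause of these changes was not tested.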
